A study of Sus scrofa with 4 samples.

Results

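The genes described here are 7 that encode surface proteins of macrophages and dendritic cells: the scavenger receptor gene *CD163*, the sialoadhesin gene *SIGLEC1*, the costimulatory ligand genes *CD80* and *CD86*, the lipid antigen presentation gene *CD1.1*, and the Fc gamma receptor genes *FCGR1A* and *FCGR3A*. They were found as the non-control probes of a pig array whose RefSeq transcript belongs to 1 of these genes in the NCBI gene table of Sscrofa11.1. That gave 15 probes, for all 7 genes, among 43603 probes on the array and 2389 genes that could be named in this way. Coordinates are left out, since no header or label states a build. In what follows, the probes of a gene are numbered from the brightest to the dimmest.

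The RNA came from the ileum, where the small intestine ends, of suckling piglets aged 16 days from Yorkshire × Landrace sows and Duroc boars. The low-gain group had 2 samples, labelled a and b, each a pool of 2 piglets with low weight gain, and the high-gain group had 2 samples, also a and b, each a pool of 3 piglets with high weight gain. The design text speaks of weight at birth instead, and the labels of the samples were followed. Nothing in the labels says whether a and b are separate pools or repeat arrays of 1 pool, and a p-value below therefore rests on the spread between arrays alone, which could be technical.

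Macrophages and dendritic cells are mononuclear phagocytes. In the intestinal wall they lie under the epithelium and in the lymphoid tissue of Peyer's patches, which is abundant in the pig ileum, and they take up dead cells, microbes and antigen. Macrophages clear haemoglobin bound to haptoglobin through CD163 and bind sialylated particles through SIGLEC1, and in pigs both proteins are known as receptors of porcine reproductive and respiratory syndrome virus. CD80 and CD86 on dendritic cells, macrophages and B cells give T cells the second signal that, with antigen, activates them. CD1 proteins present lipids to T cells. Fc gamma receptors bind IgG, FCGR1A with high affinity on phagocytes and FCGR3A, also called CD16, with low affinity on natural killer (NK) cells, monocytes and macrophages.

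Each sample was labelled with Cy3 and hybridised to 1 array. By the scanner software's flag, 32835 to 33972 of the 43803 spots that are not controls were well above background. No non-control spot was saturated. The median absolute log2 difference over 31471 probes above background on all arrays was 0.14 between the low-gain arrays and 0.14 between the high-gain arrays, against 0.17 to 0.29 between arrays of different groups. The bile acid binding protein gene *FABP6*, a marker of the ileal epithelium, was at 8.65 and 8.72 in low gain and at 8.55 and 8.76 in high gain. These and all levels below are log2 processed signals minus the 75th percentile of the array, so that 0 is that percentile. Of 6 epithelial markers above background on all arrays, *FABP6* was the 1 whose groups overlapped. On the other 5, both low-gain arrays lay above both high-gain arrays, as they did for 32.8% of named genes above background on all arrays. Precision is limited throughout by the number of arrays.

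In the low-gain ileum, the means of *CD163*, *CD80*, *CD86* and *CD1.1* were lower on all 10 of their probes, while that of *FCGR3A* was higher on all 3 of its probes. The differences ran from -1.07 to -0.28 (log2, low gain minus high gain) for these 4 genes and from 0.36 to 0.49 for *FCGR3A*. Testing required that both arrays of 1 group or the other be well above background, as was so for 14 of the 15 probes. The *SIGLEC1* probe met this only through high gain and is left out of the counts of direction and overlap below, which cover 13 probes. Counts of probes past a test, and of signs kept under other processing, cover all 14. None of the 14 passed limma's test over all 33265 tested probes at an adjusted p of 0.05, the lowest adjusted p being 0.122. Over all tested probes, 0.24% passed, 0.144% lower and 0.0962% higher in low gain. The standard errors of the 14 differences lay between 0.10 and 0.41, with 2 arrays per group.

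**Figure D1:**
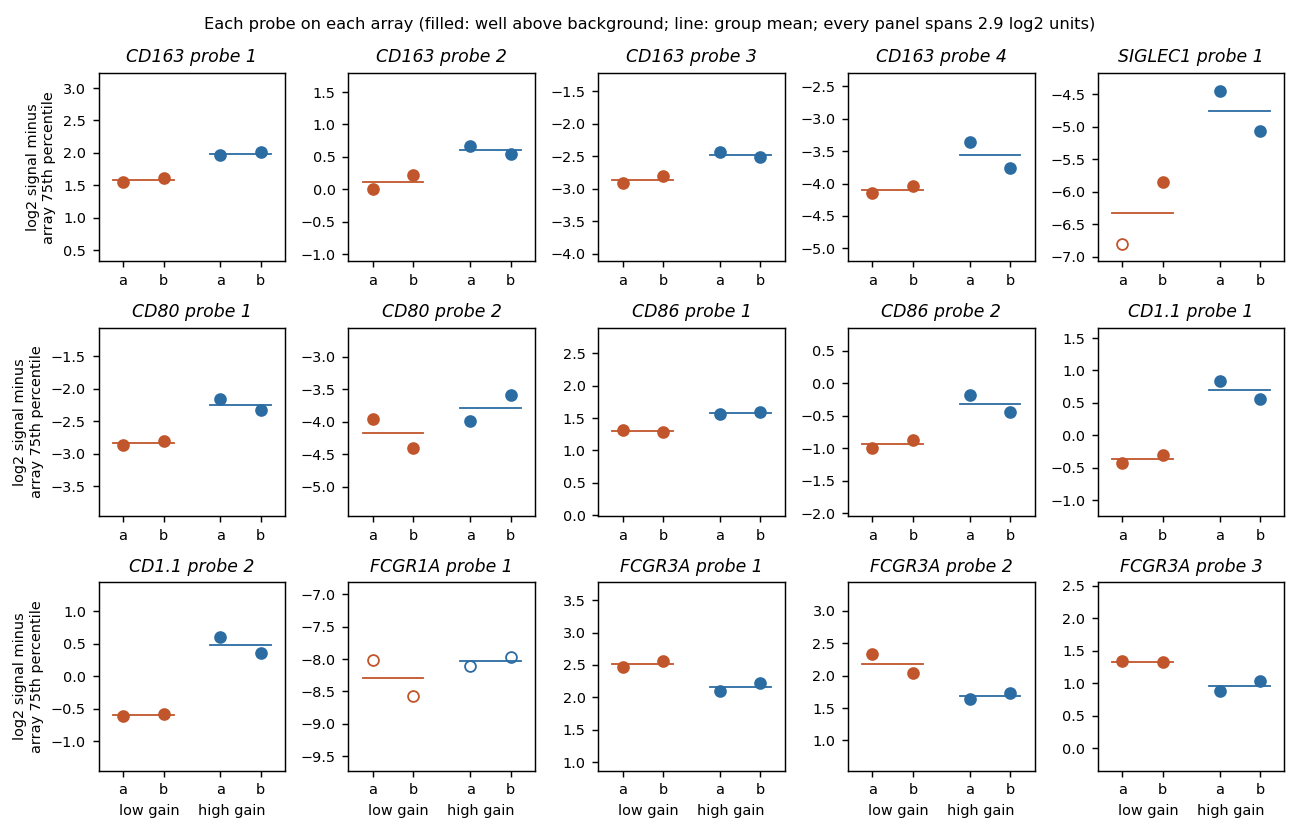
Level of each of the 15 probes on each array, as log2 processed signal minus the 75th percentile of the array, with low-gain arrays a and b on the left and high-gain arrays a and b on the right of each panel. Lines are group means, open circles are values not well above background, and every panel spans the same range. Among the 13 probes above background on all arrays, which belong to 5 genes, the low-gain arrays lie below the high-gain arrays on 9. They lie above them on the 3 *FCGR3A* probes. Of all 31471 such probes on the array, 26.7% lie below and 28.0% above.

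*CD1.1*, a pig gene of the CD1 family, had the largest difference among members above background on all 4 arrays. Its brighter probe (A_72_P077451) was at -0.42 and -0.30 in low gain, against 0.84 and 0.56 in high gain. The other probe (A_72_P528599) was at -0.61 and -0.58 in low gain, against 0.60 and 0.35 in high gain. The groups did not overlap on either probe, and the gap between them was larger than that between arrays of a group. The log2 difference was -1.06 ± 0.14 (SE, 2 arrays per group, limma adjusted p = 0.134), or 2.08-fold lower in low gain, on the first probe. It was -1.07 ± 0.13 (adjusted p = 0.122), or 2.10-fold lower, on the second. Of all tested probes, 1.13% and 1.09% had a difference at least as low as these. Both probes read 1 transcript, so they are not separate evidence, and related CD1 genes can cross-hybridise. *CD1D*, another gene of the family that presents lipids to NKT cells, was at 1.08 and 1.07 in low gain and at 1.89 and 1.71 in high gain on its brightest probe (-0.72 ± 0.12, adjusted p = 0.155), and its other 2 probes gave -0.41 and -0.10.

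*CD163* was read by 4 probes, and on each of them both low-gain arrays lay below both high-gain arrays. The brightest (A_72_P177981) was at 1.54 and 1.61 in low gain, against 1.96 and 2.01 in high gain. The second (A_72_P656100) was at 0.01 and 0.22 in low gain, against 0.67 and 0.54 in high gain. On these, the arrays of a group lay closer together than the groups did. The differences were -0.41 ± 0.10 (limma adjusted p = 0.198) and -0.50 ± 0.13 (adjusted p = 0.207). The third probe (A_72_P624895) was at -2.91 and -2.81 in low gain, against -2.43 and -2.52 in high gain (-0.39 ± 0.11). The fourth (A_72_P170001) was at -4.15 and -4.04 in low gain, against -3.35 and -3.75 in high gain (-0.54 ± 0.17). The 4 estimates, 1.31-fold to 1.46-fold lower in low gain, lay within about 1 standard error of each other. The fourth probe was dim, with processed signals of 23.2 and 28.2 in low gain against 47.3 and 34.9 in high gain.

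*SIGLEC1* was measured close to background. Its single probe (A_72_P232687) was at -6.80 and -5.85 in low gain, against -4.45 and -5.06 in high gain. It was well above background on low-gain array b but not on low-gain array a, and on both high-gain arrays. The processed signals behind these levels were 3.69 and 8.08 in low gain, against 22.1 and 14.1 in high gain, and the scanner software's own error was 40.5% of the signal on low-gain array a and 11.8% to 17.3% on the other 3 arrays. The median pixel values were 26.0 and 30.5 in low gain, against 43.0 and 35.5 in high gain, over local backgrounds of 16.5 to 19.0. The groups did not overlap, but the low-gain arrays were 0.95 apart. The fitted difference was -1.57 ± 0.41 (limma adjusted p = 0.207). Its size depended on the treatment of the background: it was -0.97 in the authors' deposited table, -0.09 with normexp background correction and -0.13 with normexp after bright local backgrounds were replaced. An offset of 50 added by normexp exceeds these signals and by itself draws such a ratio towards 1.

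Both costimulatory ligand genes had lower means in low gain. *CD80* was at -2.86 and -2.80 in low gain, against -2.16 and -2.33 in high gain, on its brighter probe (A_72_P186596), and the groups did not overlap. This difference was -0.59 ± 0.12 (limma adjusted p = 0.180). The dimmer probe (A_72_P088196) was at -3.95 and -4.41 in low gain, against -3.99 and -3.60 in high gain. There low-gain array a lay above high-gain array a, and the difference of -0.39 ± 0.23 (adjusted p = 0.436) was less than 2 standard errors from 0. Among the 13 member probes above background on all arrays, it was the single 1 whose groups overlapped.

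*CD86* was at 1.31 and 1.28 in low gain, against 1.57 and 1.60 in high gain, on its brighter probe (A_72_P035396). The dimmer probe (A_72_P539768) was at -1.003 and -0.87 in low gain, against -0.18 and -0.44 in high gain. The groups did not overlap on either. The differences were -0.28 ± 0.10 (limma adjusted p = 0.259), or 1.22-fold lower in low gain, and -0.63 ± 0.14 (adjusted p = 0.190), or 1.54-fold lower, so the 2 probes gave different sizes. Among all tested probes 18.1% were at least as low as the brighter probe and 5.24% as low as the dimmer one.

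A gap of this kind between probes was common on these arrays. Among 1145 named genes with at least 2 probes above background on all arrays, the dimmest probe had the lower difference (low gain minus high gain) than the brightest in 830 (72.5%), with a median of -0.15 between them. The corresponding gap was -0.34 for *CD86*, -0.13 for *CD163*, -0.01 for *CD1.1*, 0.01 for *FCGR3A* and 0.20 for *CD80*. The brightest probes of *CD163*, *CD80*, *CD86* and *CD1.1* all had lower means in low gain. The part of this shift in the size of the dimmer probes' differences was not tested.

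*FCGR3A*, the gene for CD16, went the other way on all 3 probes. The brightest (A_72_P223802) was at 2.48 and 2.56 in low gain, against 2.09 and 2.22 in high gain. The second (A_72_P580952) was at 2.33 and 2.03 in low gain, against 1.65 and 1.74 in high gain. The third (A_72_P662096) was at 1.34 and 1.32 in low gain, against 0.88 and 1.03 in high gain. Both low-gain arrays lay above both high-gain arrays on each. The differences were 0.36 ± 0.11, 0.49 ± 0.15 and 0.38 ± 0.11 (limma adjusted p = 0.229, 0.227 and 0.225), or 1.28-fold to 1.40-fold higher in low gain. Probes for this gene may also read closely related Fc receptor genes.

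CD16 is also carried by NK cells, whose markers are given here beside *FCGR3A*. Of 12 NK and cytotoxic cell markers, 6 had a tested probe. Of these 6, 5 had both low-gain arrays above both high-gain arrays, against 32.8% of named genes above background on all arrays. The test was passed by 1, higher in low gain, against 0.0962% of all tested probes. With the intensity trend described below 5 were called higher, against 2.26% of all tested probes. The summed linear level of the 6 probes was 14.1 and 14.7 in low gain, against 6.44 and 6.55 in high gain, of which the granzyme gene *GZMB* alone gave 75.4% to 77.1% on each array. The marker past the test was another granzyme gene, *GZMK*, which rose (1.67 ± 0.10, limma adjusted p = 0.0383). *NCR1*, which encodes an activating receptor of NK cells, was dim at -4.89 and -5.99 in low gain and at -5.51 and -5.19 in high gain, with overlapping groups (-0.10 ± 0.42). T cell markers, 7 of 10 with a tested probe, had a median of 0.43, with 6 higher and 1 lower in low gain. They summed to 8.06 and 7.30 in low gain, against 6.16 and 6.24 in high gain. The largest difference among them was that of *CD8A* (0.95 ± 0.11, limma adjusted p = 0.118), whose other probe gave 0.03. With the intensity trend *CD8A* was called higher (adjusted p = 0.0165). The part of these cells in the *FCGR3A* difference was not tested. In whole tissue, fewer cells of a type and less RNA per cell cannot be told apart for any gene described here.

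*FCGR1A*, the gene of the high-affinity IgG receptor, was not well above background on any array. Its probe (A_72_P302844) had processed signals of 1.59 and 1.22 in low gain and of 1.75 and 1.88 in high gain, with errors of 61.3% to 93.8% of the signal. No fold is given for it, and it was not tested.

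**Figure D2:**
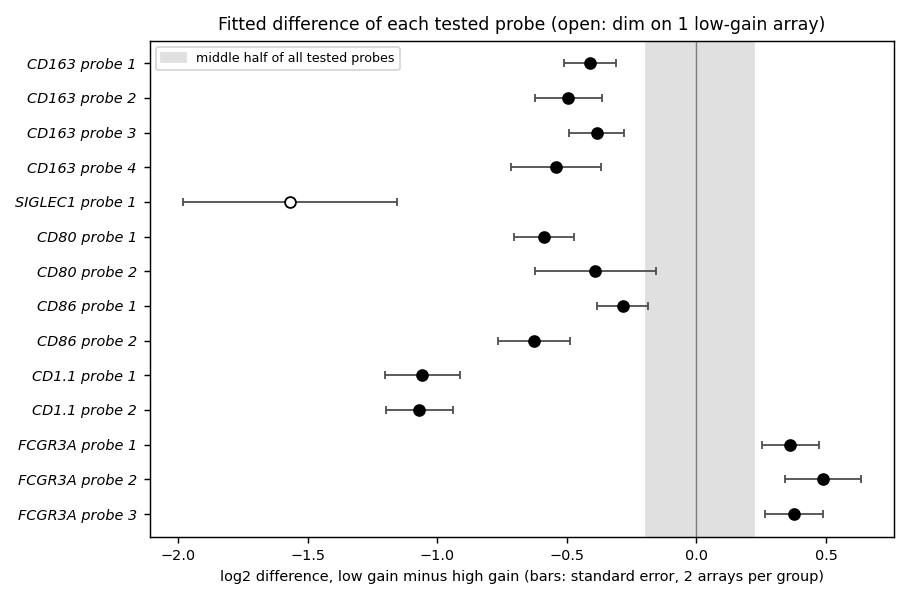
Fitted log2 difference (low gain minus high gain) of each tested probe with its standard error, 2 arrays per group. The grey band runs from the lower to the upper quartile of all 33265 tested probes, -0.19 to 0.22, and the open circle is the *SIGLEC1* probe, which was dim on low-gain array a. Of the 13 filled estimates, 10 lie below the band and 3 above it.

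Of the 13 probes above background on all arrays, 9 had both low-gain arrays below both high-gain arrays, against 26.7% of the 31471 such probes in the table, and 3 had them above, against 28.0%. An unadjusted limma p under 0.05 was reached by 9 of the 13 lower in low gain, against 8.19% of such probes, and by 3 higher, against 9.74%. The median difference of the 13 probes was -0.41, beside 0.02 for all 31471. Probes of a gene share their transcript, so the count was repeated with the brightest probe of each gene. Of 5 genes, 4 lay below and 1 above, whereas 29.3% of the 2099 named genes above background on all arrays lay below and 32.8% above. An unadjusted limma p under 0.05 was reached by 4 of the 5 lower and by 1 higher, beside 188 lower and 260 higher of the 2099. The median over the 5 genes was -0.41, beside 0.03 over these 2099 genes. The members were chosen with earlier results of these data known, so these counts and shares are description and not a test.

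The calls depended on how the variance was estimated. When the prior variance followed signal intensity, 3 of the 14 probes passed, all lower in low gain, where 1.5% of all tested probes were called lower and 2.26% higher. They were both *CD1.1* probes (limma adjusted p = 0.0137 and 0.0103) and the brightest *CD163* probe (adjusted p = 0.0471). With median centring of the arrays as well, where 2.13% of probes were called lower, both *CD1.1* probes and the dimmer *CD86* probe (adjusted p = 0.0436) passed and the *CD163* probe did not. With normexp after bright local backgrounds were replaced, where 0.442% were called lower, only the *CD1.1* probes among the 14 passed (adjusted p = 0.0109 and 0.0202). With the intensity trend and low-gain array a left out, 0 of the 14 passed, the lowest adjusted p being 0.0672.

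A ratio of 2 probes on the same array does not depend on how the array is scaled. The log2 ratio of the brightest *CD163* probe to the brightest *FCGR3A* probe was -0.93 and -0.95 in low gain, against -0.13 and -0.21 in high gain. For the brighter *CD1.1* probe it was -2.90 and -2.85 in low gain, against -1.26 and -1.66 in high gain. The denominator was chosen after its values were seen and was itself higher in low gain, so these ratios restate the values above free of scaling and are given with no test.

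Other macrophage genes gave a median nearer to 0. Of 23 listed genes 7 had a tested probe, none passed the test in either direction, and the median difference was -0.07. The lipopolysaccharide co-receptor gene *CD14* was at 0.68 and 0.41 in low gain and at 0.76 and 0.82 in high gain on its brighter probe (-0.25 ± 0.14), and its other probe gave -1.11. *SPI1*, which encodes the myeloid transcription factor PU.1, differed by -0.40 ± 0.13 and *TLR4*, the lipopolysaccharide receptor gene, by -0.19 ± 0.10, while *TREM1*, an amplifying receptor gene of neutrophils and monocytes, differed by 0.50 ± 0.18 (limma adjusted p = 0.248 to 0.391 for these 3). The other 3 *TLR4* probes gave -0.85 to -0.18. *TREM1* was dim, at -5.42 and -5.33 in low gain and at -6.08 and -5.67 in high gain. *AIF1*, a general marker of macrophages, was at 3.93 and 3.96 in low gain and at 4.03 and 3.999 in high gain (-0.07 ± 0.10). Its other probe gave 0.002. *C1QA*, the other bright gene of the list, went the other way, at 3.84 and 3.79 in low gain and at 3.69 and 3.71 in high gain (0.11 ± 0.10). The summed linear level of the 7 genes was 33.9 and 33.6 in low gain and 33.8 and 33.7 in high gain, so that the groups overlapped. That sum rests mainly on *AIF1* and *C1QA*, which differed in opposite directions.

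Dendritic cell genes outside the 7 were also mixed, with 10 of 21 tested, none past the test. The median of the 9 above background on all arrays was -0.17. Besides *CD1D*, named above, the C-type lectin gene *CD209* differed by -0.34 ± 0.17, the chemokine receptor gene *XCR1*, a marker of cross-presenting dendritic cells, by 0.36 ± 0.14, and *CLEC7A*, the beta-glucan receptor gene, by 1.38 ± 0.44. *CLEC7A* was dim, at -5.00 and -5.38 in low gain and at -7.15 and -6.00 in high gain, and was well above background on only 1 high-gain array. Their adjusted p-values were 0.364, 0.288 and 0.239. With the intensity trend 1 of the 10, *CD1D*, passed (adjusted p = 0.0177).

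Among partners of the Fc receptors, 7 of 15 were tested, none passed, and the median was 0.08. *CD247*, which encodes the zeta chain that signals for CD16 in NK cells and for the T cell receptor, was at 3.13 and 3.21 in low gain and at 3.92 and 3.76 in high gain (-0.67 ± 0.12, limma adjusted p = 0.161), with its other probe at -0.86. The inhibitory receptor gene *FCGR2B* differed by -0.41 ± 0.10, but its other 2 probes gave -0.34 and 0.42. *SYK*, the kinase gene downstream of these receptors, differed by -0.38 ± 0.10, with its other probe at -0.79. *FCGRT*, the neonatal Fc receptor gene, differed by 0.36 ± 0.10, with its other 2 probes at -0.37 and 0.04. The chain genes *FCER1G* (0.08 ± 0.18) and *TYROBP* (0.19 ± 0.18) had overlapping groups. With the intensity trend *CD247*, *SYK* and *FCGRT* passed (adjusted p = 0.0165, 0.0398 and 0.0492).

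The receptors and relatives of CD80 and CD86 formed another list. Of its 13 genes 7 were tested, none passed with or without the intensity trend, and the median was 0.06. *CTLA4*, the inhibitory receptor gene for both ligands, was at -3.98 and -3.92 in low gain and at -3.95 and -4.21 in high gain (0.14 ± 0.14), and its relative *ICOS* differed by 0.26 ± 0.10, with its other probe at -0.20. *PDCD1LG2*, a B7 family ligand gene, differed by -0.49 ± 0.24 with its other probes at -0.67 and -0.42. *LCK*, a T cell kinase gene, differed by 0.07 ± 0.12, with its other probe at -0.26. B cells, which also carry CD80 and CD86, had 3 of 10 markers tested, with a summed level of 12.9 and 12.1 in low gain, against 13.2 and 15.6 in high gain. *CD79A*, of the B cell receptor, differed by -0.31 ± 0.13. The part of B cells in the *CD80* and *CD86* differences was not tested.

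Genes tied to the cargo of CD163 went in both directions. Of 12 listed genes 6 were tested and none passed, with a median of 0.13. *HP*, the haptoglobin gene, was at -0.42 and -0.40 in low gain and at -1.82 and -1.84 in high gain (1.42 ± 0.10, limma adjusted p = 0.0508), and its other 4 probes gave 0.81 to 1.27. *HMOX1*, the gene of the haem-degrading enzyme, was at 3.08 and 3.15 in low gain and at 3.61 and 3.70 in high gain (-0.54 ± 0.10, adjusted p = 0.176), and its other 2 probes gave -1.25 and -0.39. The transferrin receptor gene *TFRC* differed by -0.60 ± 0.17, and *TNFSF12*, whose product TWEAK has been found to bind CD163 in humans, by 0.42 ± 0.15. With the intensity trend *HP* and *HMOX1* passed, in opposite directions (adjusted p = 0.00288 and 0.0224).

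SIGLEC1 is induced by type I interferon in humans and mice, and other interferon-stimulated genes were listed for that reason. Of 18 listed genes 16 were tested, none passed, and the median was 0.05. *CXCL9*, a T cell chemokine gene, differed by 0.46 ± 0.10 and *BST2*, the tetherin gene, by 0.44 ± 0.10, whereas *OAS2*, of the antiviral RNA-sensing pathway, differed by -0.44 ± 0.12 and *USP18*, which restrains interferon signalling, by -0.41 ± 0.10. The limma adjusted p-values of these 4 ran from 0.185 to 0.214. The other 4 *OAS2* probes gave -1.22 to -0.29, and the other *USP18* probe gave -0.99. With the intensity trend 2 of the 16 genes were called lower and 1 higher.

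For growth factors, cytokines and chemokines of mononuclear phagocytes, 18 of 22 were tested, none passed with or without the trend, and the median of the 17 above background on all arrays was 0.09. *CCL4*, a chemokine gene, differed by 0.49 ± 0.11, *IL4* by 0.52 ± 0.23, *IL10*, an anti-inflammatory cytokine gene, by -0.34 ± 0.11 and *CSF2*, a growth factor gene of dendritic cells, by -0.38 ± 0.19. *IL4* was dim, at -5.31 and -5.84 in low gain and at -5.97 and -6.22 in high gain. Antigen presentation genes of the MHC class II and lipid pathways had 12 of 14 tested, none past the test with or without the trend, and a median of -0.02. *CD74*, the invariant chain gene, was at 4.39 and 4.34 in low gain and at 4.90 and 4.70 in high gain (-0.43 ± 0.12), with its other probe at -0.80. *PSAP*, whose products load lipids onto CD1, differed by -0.45 ± 0.12, *MTTP*, needed to load CD1d with lipid in mice, by 0.37 ± 0.17, and *SLA-DOA*, a class II chaperone gene, by -0.26 ± 0.12. The class II gene *SLA-DRA* differed by -0.04 ± 0.12, with its other 6 probes at -0.49 to 0.17.

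**Figure D3:**
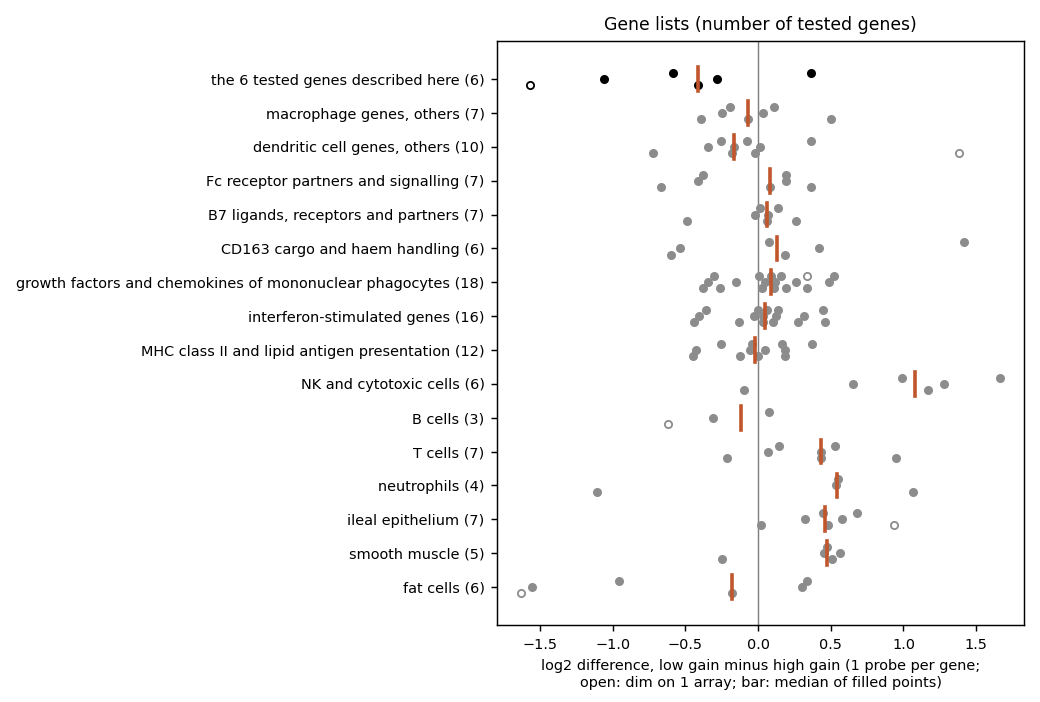
Log2 difference (low gain minus high gain) of every tested gene of each list, 1 probe per gene, with the number of tested genes in parentheses. Open points were dim on 1 array, and the bar is the median of the filled points: -0.41 for the genes described here, -0.07 for the other macrophage genes and -0.17 for the other dendritic cell genes.

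Markers of other cells of the ileal wall are given as levels beside these values. Of 13 epithelial markers 7 were tested. The 6 above background on all arrays had a median of 0.46 and ran from 0.02 (*FABP6*) to 0.68 (*ANPEP*). Smooth muscle markers, 5 of 8 tested, had a median of 0.48, with 1, *ACTA2*, at -0.25. They had summed levels of 308 and 303 in low gain, against 235 and 233 in high gain. The other 3 *ACTA2* probes gave -0.61 to 0.23. Fat cell markers, 6 of 6 tested, had a median of -0.18 over the 5 above background on all arrays, which ran from -1.55 (*FABP4*) to 0.33 (*LEP*), and the 6 summed to 12.2 and 12.1 in low gain, against 15.4 and 15.2 in high gain. Neutrophil markers, 4 of 9 tested, had a median of 0.54 but a lower sum in low gain, 0.956 and 1.03 against 1.94 and 1.41 in high gain, since *NCF1*, of the phagocyte oxidase, was at -0.69 and -0.43 in low gain and at 0.80 and 0.29 in high gain. None of the tested markers of these 4 types passed the test over all probes. With the intensity trend, 3 epithelial and 4 smooth muscle markers were called higher and 1 fat cell and 1 neutrophil marker lower. Their part in the differences of the 7 genes was not tested.

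The named genes whose 4 values were most like those of a member, after each gene was centred on its mean, were found by Euclidean distance among 2099 genes above background on all arrays. For *CD163* they were *FCGR2B* (distance 0.011) and *USP18* (0.023), for *CD80* *CXCR4* (0.030) and *CCNB2* (0.042), and for *CD86* *MEF2C* (0.020) and *APOM* (0.022). For *FCGR3A* they were *TRAF6* (0.015) and *CD82* (0.018). *CD1.1* had no gene within 0.1 of it, and the nearest were *CLU* (0.142) and *ARPC1B* (0.174), while 12 genes lay within 0.1 of *CD163*, 14 of *CD80*, 38 of *CD86* and 52 of *FCGR3A*. The values were centred but not scaled, so these counts also depend on the size of a gene's own deviations from its mean. The length of those deviations was 1.08 for *CD1.1*, 0.60 for *CD80*, 0.41 for *CD163*, 0.38 for *FCGR3A* and 0.29 for *CD86*. Each distance rests on 4 arrays.

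**Figure D4:**
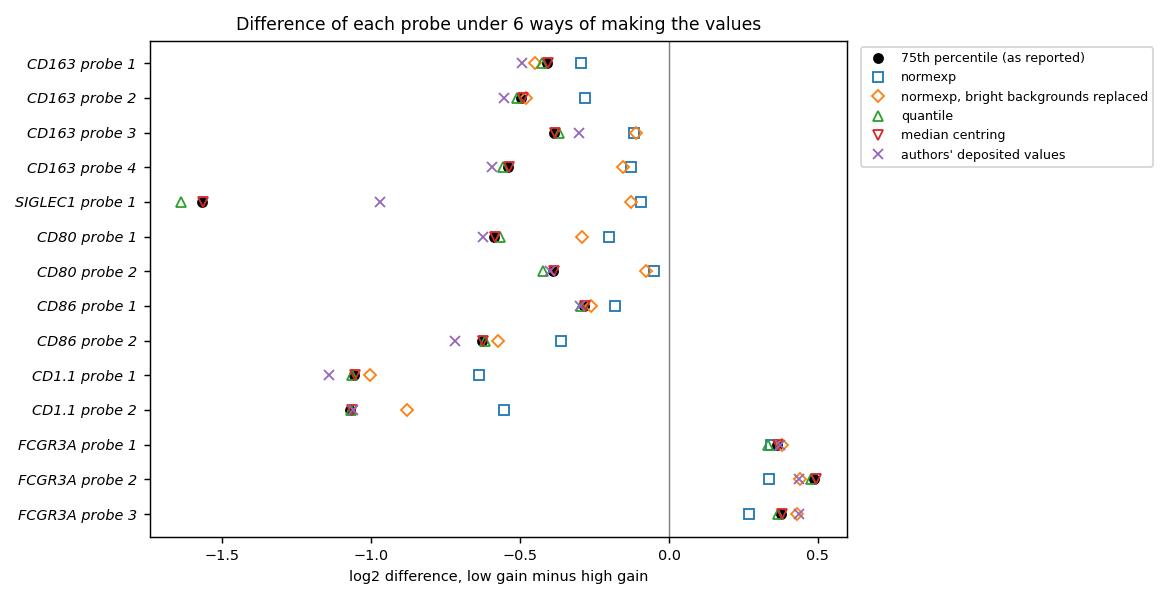
Log2 difference (low gain minus high gain) of each tested probe when the values were made in 6 ways. Quantile normalisation and median centring lie close to the reported values, while normexp brings dim probes near 0, the *SIGLEC1* probe to -0.09 and the dimmer *CD80* probe to -0.05, against -1.57 and -0.39 as reported.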

How the data were processed

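Feature Extraction 10.7.3.1 made the deposited scanner files, per the file headers. Its processed signal is an intensity that the software has corrected for background, deposited with an error estimate and with flags, among them the one for spots well above background. The authors also gave their own log2 values in a deposited table, and how these were made is not stated in the labels. That table was not centred per gene (column medians 5.62 and 5.59 for low gain, 5.67 and 5.60 for high gain), and it correlated at 0.982 to 0.993 with log2 processed signal of the same array. It served as an alternative.

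Each array was scaled by subtracting, from log2 processed signal, the 75th percentile of its non-control spots. Outlier-flagged spots were dropped, spots of a probe averaged and 48 probes with a missing value left out. Each of the 15 probes described had 1 spot, none was dropped, and their local backgrounds were 15.0 to 21.0. Limma 3.58.1 in R 4.3.3 (lmFit, eBayes) gave low gain minus high gain, and p-values were adjusted by Benjamini and Hochberg's method across the 33265 tested probes. The code was tested on simulated data. RefSeq accessions were matched without versions, 5461 of 5779 probes. The members, lists and tests were chosen with earlier results of these data known. The rule named every probe of the 7 genes, the 2 nearest genes of each and, per list, genes past the test and then the largest differences, up to 4, by the brightest tested probe. *AIF1*, *C1QA*, *TYROBP*, *FCER1G*, *SLA-DRA*, *NCR1*, *ACTA2* and *FABP6* lie outside it and were named after their values were seen. Alternatives covered background correction, normalisation, the deposited values, the filter on dim probes, the prior variance, each array left out and the letter as a block.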

Additional observations from a re-analysis of the deposited data

How the results depend on the processing

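All 14 tested probes kept the sign of their difference in each alternative that measured them, 209 values in all. For the filters, the intensity trend and the letter block this was fixed in advance, since they leave the differences as they are. Leaving out 1 array could change the sign only of the dimmer *CD80* probe, since the groups overlapped on no other tested probe. Median centring moved every difference by the same small amount, the brighter *CD86* probe from -0.285 to -0.280. The signs were free to change mainly with normexp, quantile normalisation and the deposited values. The *SIGLEC1* probe was not measured where signal on all arrays was required. It was tested only through high gain, the group where it was brighter, so its sign adds no support. No probe of the 7 genes passed the test as reported, and 3 did with the intensity trend. In alternatives chosen after the data were seen, 3 passed with the trend and median centring and 2 with normexp after local backgrounds over 10 times the array's median were replaced. Normexp without that replacement moved differences by over 1.5 times, *CD1.1* to -0.64 and -0.55 and *CD86* to -0.18 and -0.36. It moved *CD80* to -0.20 and -0.05, and the dimmer *CD163* probes to -0.28, -0.12 and -0.13. The brightest local background was 166072 on low-gain array a and 104994 on high-gain array b. It was 29 on low-gain array b and 27 on high-gain array a. With bright backgrounds replaced, *CD1.1* was at -1.003 and -0.88 and *CD86* at -0.26 and -0.57. *CD80* was then at -0.29 and -0.08, and the dimmer *CD163* probes at -0.48, -0.11 and -0.15. The standard errors of the *CD1.1* probes were 0.88 and 0.87 without the replacement and 0.13 on both with it. The dimmer *CD80* probe ranged from -0.62 to -0.16 and the dimmest *CD163* probe from -0.74 to -0.34 when 1 array was left out.

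Of all probes, 80 passed as reported. The number was 0 with normexp, 163 with median centring, 12 with no filter on dim probes, 0 with signal required on all arrays, 1250 with the intensity trend, 357 with bright backgrounds replaced, 1521 with the trend and median centring, and 197 with the trend and low-gain array a left out. Leaving out 1 array gave 0 to 37, that is 36 without low-gain array a, 37 without low-gain array b and 0 without either high-gain array, with residual degrees of freedom down from 2 to 1. With the letter as a replicate block 0 probes passed, and the lowest adjusted p among the 14 was 0.346. The labels do not say whether arrays of the same letter share more than the letter. Their deviations from the group means correlated at -0.03, a single value with 2 arrays per group, which cannot tell whether they shared handling. The cause of the changes in these counts was not tested. Signal near background limits *SIGLEC1*, *FCGR1A* and the dimmest *CD163* and *CD80* probes.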
